A study of Schizosaccharomyces pombe with 6 samples.

Results

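The stress MAP kinase pathway of fission yeast (Schizosaccharomyces pombe) was followed through 10 genes, wis4, win1, mcs4, wis1, sty1, srk1, atf1, pcr1, pyp1 and pyp2. They were taken by name from 12606 annotated genes on chromosomes I to III. In this pathway the response regulator Mcs4 and the MAP kinase kinase kinases Wis4 and Win1 act on the MAP kinase kinase Wis1, which phosphorylates the MAP kinase Sty1. Active Sty1 enters the nucleus, where it phosphorylates the bZIP factor Atf1, the partner of Pcr1 at stress gene promoters, and it also activates the kinase Srk1. The tyrosine phosphatases Pyp1 and Pyp2 switch Sty1 off, and pyp2 and srk1 are themselves known targets of Atf1. The pathway answers osmotic, oxidative, heat and nutrient stress, and in growing cells it also bears on the timing of mitosis and on mating.

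Capped 5′ ends of RNA were counted by CAGE, cap analysis of gene expression, in whole cells of 2 strains with 3 libraries each. The fft2fft3 double mutant, strain Hu2000, is h- and carries fft2::kan together with fft3::hph, next to the markers ade6M210, leu1-32 and ura4-D18. The wild type, strain Hu0029, is likewise h- and carries ade6-M210 with leu1-32 and ura4-D18. Mating type and markers are thus shared, and fft2 and fft3 encode related SNF2-family chromatin remodelling ATPases. Cultures of both strains grew unstressed in YES (30 °C, 180 rpm) and were harvested at mid-log phase, and the series asks where transcription starts in each strain. The growth protocol speaks of duplicate cultures although there were triplicate libraries, so libraries may share a culture, and p-values then speak of the spread among libraries alone.

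The value of a gene was the sum of the tag clusters on its strand between 500 bp upstream of its annotated start and 100 bp downstream of it, or its start codon where that lay further. It is given in TPM, here tags per 1000000 tags of the library. Each RNA gives 1 tag whatever its length, so levels were compared between genes without a length correction. A cluster in this window was found for 10033 genes, among them all 10 pathway genes, and the 5609 genes that averaged 1 TPM or more across the 6 libraries were tested. Of the pathway genes 9 passed this filter, and pyp1 did not. Libraries held between 19861901 and 23242895 tags in the double mutant and between 12681906 and 20072985 tags in the wild type, where the shallowest was replicate 2. Tags within the coding part of fft2 averaged 0.12 ± 0.046 TPM in the double mutant and 5.11 ± 1.02 TPM in the wild type (SD, n = 3 each), and those within fft3 averaged 0.414 ± 0.177 TPM in the double mutant and 2.56 ± 0.952 TPM in the wild type. The promoter windows of both genes still gave tags in the double mutant. That of fft2 was lower, at 11.0 ± 0.763 TPM against 67.6 ± 1.20 TPM in the wild type. The fft3 window was higher, at 174.1 ± 47.4 TPM in the double mutant against 71.2 ± 29.2 TPM in the wild type (log2 fold change 1.32, adjusted p = 0.0155 by limma). Wild-type replicate 2 stood apart in some genes taken as signs of cells leaving growth. The meiotic regulator mei2 had 34.2, 57.0 and 68.7 TPM in the double mutant, and 7.42, 189.9 and 9.61 TPM in wild-type replicates 1 to 3. This library was also far above the other wild-type ones for mfm1, isp5 and zym1. It differed little for ste11, with 1.99, 2.37 and 1.87 TPM in wild-type replicates 1 to 3, and for fbp1, with 0.249, 0.315 and 0.152 TPM. Results that turn on this library are given with and without it.

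The binding element of Atf1 and Pcr1 shares its core, TGACGT, with the cyclic AMP response element. This core was searched on both strands in the 300 bp before the annotated start of each of 5113 protein-coding genes, and 308 of them, 6.02%, held it. Of the 10 pathway genes, atf1 and srk1 held it and the other 8 did not. The promoter of srk1 held 3 separate cores, at -114, -56 and -37 bp from the annotated start, and 3 or more were found in 4 of all promoters, 0.0782%. The promoter of atf1 held the full palindrome TGACGTCA, which is a core on each strand, at -52 and -50 bp, and 16 promoters, 0.313%, held this palindrome. Both promoters are shown because they are those of the pathway's transcription factor and of its downstream kinase, with each core in capitals. Sequences here are from RefSeq, assembly ASM294v3, on the strand of the gene. The atf1 stretch is II:1546117-1546216, the last 100 bases before the annotated start, on the plus strand.
atf1 promoter: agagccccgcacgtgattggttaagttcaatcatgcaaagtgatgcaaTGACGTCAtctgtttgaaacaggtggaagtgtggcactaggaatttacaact
The srk1 stretch is III:1301737-1301936, the last 200 bases before the annotated start, on the plus strand.
srk1 promoter: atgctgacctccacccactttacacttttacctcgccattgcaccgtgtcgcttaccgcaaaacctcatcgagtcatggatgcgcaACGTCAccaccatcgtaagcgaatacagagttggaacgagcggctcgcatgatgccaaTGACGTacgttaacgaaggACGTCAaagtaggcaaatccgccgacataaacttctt
Within the srk1 leader, the core was found again at +271 bp and at +509 bp, and this second one lies 57 bp before a start site inside the leader that is described below. The stretch III:1302437-1302466 around the site at +509 bp is given with that core in capitals.
srk1 leader: ttttcttctACGTCAggtgctttcatacgg
The pyp2 promoter, I:5202556-5202655 on the plus strand, is shown because its output differed between the strains. It holds no match in this window.
pyp2 promoter: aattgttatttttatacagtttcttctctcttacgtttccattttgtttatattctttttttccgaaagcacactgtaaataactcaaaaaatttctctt
A match describes letters only, and occupancy was not measured.

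Among the promoters of the pathway 1, that of the phosphatase gene pyp2, was lower in the double mutant, and no change passed the test at those of the kinases and transcription factors. Of the 9 genes tested, 0 were higher and 1 was lower by limma with Benjamini-Hochberg adjustment over all genes at 0.05, and 2 had an unadjusted p under 0.05. Among all 5609 genes tested, 24.3% were higher and 9.09% were lower, and 2492 had an unadjusted p under 0.05. By edgeR on recovered tags the counts among the pathway genes were also 0 and 1, where 18.2% of all genes were higher and 14.9% lower. The median log2 fold change of the 9 genes, double mutant over wild type on the log2(TPM + 0.5) scale, was 0.05, beside 0.13 for all genes tested. That median of all genes became -0.02 with TMM or median-of-ratios scaling, so fold changes are read against it, and the small positive values of sty1, wis1, wis4 and mcs4 below turn slightly negative with either scaling.

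The upstream kinases were read first. Wis4 and Win1 are the MAP kinase kinase kinases, and Mcs4 is the response regulator that works with them. The wis4 promoter (I:1968857-1973575, plus strand) had 37.5, 39.6 and 32.5 TPM in the double mutant, and 38.9, 34.5 and 33.8 TPM in the wild type. Its groups overlapped, with a log2 fold change of 0.03 ± 0.13 (SE; adjusted p = 0.894). The win1 promoter (I:5089816-5094848, plus strand) had 8.09, 8.96 and 12.4 TPM in the double mutant, and 5.83, 7.65 and 7.69 TPM in the wild type. Every mutant library lay above every wild-type library, but the log2 fold change of 0.44 ± 0.20 did not pass the test (adjusted p = 0.135). Groups that do not overlap were found in 47.9% of all genes tested, and in 2 of the pathway genes, win1 and pyp2. The mcs4 promoter (II:3557088-3559137, plus strand) had 31.5, 36.7 and 32.4 TPM in the double mutant, and 41.1, 28.0 and 30.0 TPM in the wild type. The wild-type values enclosed all mutant values, and the log2 fold change was 0.04 ± 0.17 (adjusted p = 0.885).

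Wis1 is the only MAP kinase kinase of the pathway, and Sty1 is its substrate. The wis1 promoter (II:1143731-1146603, minus strand) had 81.1, 96.2 and 89.9 TPM in the double mutant, and 90.9, 90.0 and 77.1 TPM in the wild type. The groups overlapped (log2 fold change 0.05 ± 0.12, adjusted p = 0.782). The sty1 promoter (I:206476-208136, minus strand) was the strongest of the pathway in both strains, with 179.7, 167.3 and 165.8 TPM in the double mutant, and 183.9, 150.1 and 163.7 TPM in the wild type. These groups overlapped too, with a log2 fold change of 0.05 ± 0.11 (adjusted p = 0.786). With 3 libraries a group, an SE of this size leaves small differences undetectable, and a p above the threshold does not show equal output.

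Atf1 and Pcr1 form the bZIP pair that carries the Sty1 signal to promoters. The atf1 promoter (II:1546217-1549862, plus strand) had 94.4, 81.2 and 86.0 TPM in the double mutant, and 61.6, 83.1 and 58.4 TPM in the wild type. Wild-type replicate 2 was the one library that reached into the mutant range. The log2 fold change was 0.38 ± 0.16 (adjusted p = 0.103), and without wild-type replicate 2 it was 0.53 and passed the test (adjusted p = 0.021). The pcr1 promoter (I:4252142-4253600, minus strand) had 10.5, 19.3 and 19.7 TPM in the double mutant, and 13.1, 12.7 and 11.1 TPM in the wild type. Mutant replicate 1 lay below all wild-type libraries, while the other mutant libraries lay above them. Its log2 fold change was 0.36 ± 0.24 (adjusted p = 0.298), and without mutant replicate 1 it was 0.65 (adjusted p = 0.019). Calls on both genes therefore rest on 1 library. Of the 3 genes whose log2(TPM + 0.5) over the 6 libraries was most like that of atf1, the heat shock factor gene hsf1 had a Pearson r of 0.989, med15 0.981 and rho5 0.979, given as a description over libraries of both strains.

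Srk1 is the kinase that Sty1 activates and that acts on the mitotic phosphatase Cdc25. The srk1 window (III:1301937-1305468, plus strand) summed to 40.3, 75.6 and 79.8 TPM in the double mutant, and 76.5, 86.8 and 56.2 TPM in the wild type. The lowest library was mutant replicate 1 and the groups overlapped (log2 fold change -0.20 ± 0.28, adjusted p = 0.617). Without mutant replicate 1 the value was 0.11, so the summed output has no direction, although the start sites that make up the sum did differ, as described below.

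The windows of the phosphatase genes gave the lowest values of the pathway. The pyp2 promoter (I:5202656-5205202, plus strand) had 0.860, 0.646 and 0.856 TPM in the double mutant, and 3.34, 2.21 and 3.39 TPM in the wild type. The groups were well apart, with the highest mutant library below the lowest wild-type library. The pyp2 gene fell in the double mutant (log2 fold change -1.42 ± 0.19, adjusted p = 0.00103), its mean being 3.78-fold higher in the wild type, and it stayed lower when any 1 library was left out, with values between -1.59 and -1.33. These means rest on 52 tags in the double mutant and 162 tags in the wild type, and at a mean of at least 5 TPM the gene would not have been tested. The pyp1 window (I:5161512-5163360, plus strand) had 0.129, 0.991 and 0.705 TPM in the double mutant, and 0.299, 0.394 and 0.304 TPM in the wild type, and was not tested. In the annotation the start of pyp1 is its start codon, with no leader, so the window may miss the promoter of pyp1. The nearest start upstream of it on the same strand with a mean of at least 1 TPM lay at -1827 bp, outside the window, with 2.65 ± 0.0543 TPM in the double mutant and 2.09 ± 0.414 TPM in the wild type (SD, n = 3 each; adjusted p = 0.200), and whether it serves pyp1 was not tested. The 3 genes most like pyp2 over the 6 libraries were oca3 (Pearson r = 0.994), atg2402 (0.992) and the non-coding RNA gene SPNCRNA.945 (0.992).

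**Figure D1:**
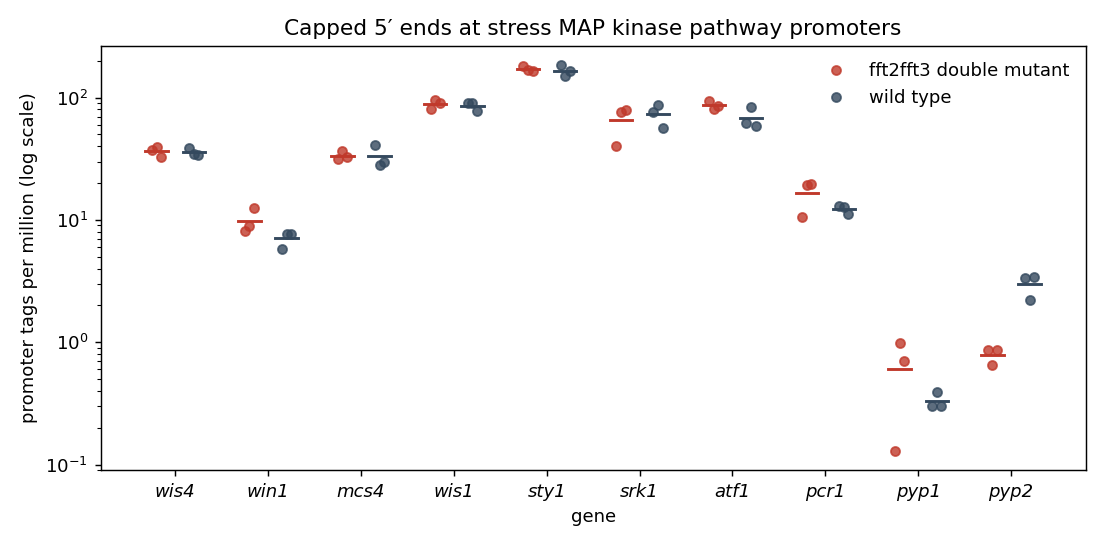
Promoter level of each of the 10 pathway genes in TPM on a log scale, one point per library and a bar at the mean, for the double mutant on the left of each pair and the wild type on the right. The pyp2 points are at 0.646 to 0.860 TPM in the double mutant and at 2.21 to 3.39 TPM in the wild type, while the points of wis4, mcs4, wis1, sty1, srk1, atf1, pcr1 and pyp1 overlap between the strains.

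The order of window levels was nearly the same in the 2 strains, where the pyp1 window may miss its promoter. In the double mutant it ran sty1 (170.9 ± 7.64 TPM), wis1 (89.1 ± 7.58), atf1 (87.2 ± 6.67), srk1 (65.2 ± 21.7), wis4 (36.5 ± 3.64), mcs4 (33.5 ± 2.76), pcr1 (16.5 ± 5.17), win1 (9.83 ± 2.30), pyp2 (0.788 ± 0.122) and pyp1 (0.608 ± 0.439), as means with SD over 3 libraries. In the wild type it ran sty1 (165.9 ± 16.98 TPM), wis1 (86.0 ± 7.73), srk1 (73.1 ± 15.6), atf1 (67.7 ± 13.4), wis4 (35.7 ± 2.73), mcs4 (33.0 ± 7.07), pcr1 (12.3 ± 1.04), win1 (7.06 ± 1.06), pyp2 (2.98 ± 0.668) and pyp1 (0.332 ± 0.0538). Neighbours whose libraries overlapped were wis1 and atf1, wis4 and mcs4, pcr1 and win1, and pyp2 and pyp1 in the double mutant. In the wild type they were wis1 and srk1, srk1 and atf1, and wis4 and mcs4. The MAP kinase gene thus gave the most capped 5′ ends of the pathway in every library, and the bZIP partner pcr1 gave fewer than atf1.

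The single start sites within these sums were examined next. The deposited table held 331 clusters for the 10 genes, 77 in promoter windows, 162 inside the genes on their strand and 92 on the opposite strand, and 28 of the 331 reached a mean of at least 1 TPM and were tested. Of these 28, 6 were higher and 3 lower in the double mutant, against 36.9% higher and 9.36% lower among all clusters tested. Each of the 6 higher starts averaged under 1 TPM in the wild type, so it passed the filter only through the double mutant. Among the lower ones, srk1 at +417 bp (0.900 TPM) and pyp2 at +7 bp (0.452 TPM) were under 1 TPM in the double mutant and passed through the wild type. All clusters went through the same filter, so the shares carry the same selection. The median log2 fold change of all clusters was 0.27 as deposited and -0.02 with TMM or median-of-ratios scaling, and the 9 called starts kept their direction with either. Of the 12 tested promoter clusters 0 were higher and 2 lower, against 21.8% higher and 13.0% lower among all promoter clusters tested. Of the 11 tested inside the genes 3 were higher and 0 lower, against 48.4% higher and 3.08% lower among all such clusters. Of the 5 tested antisense 3 were higher and 1 lower, against 75.2% higher and 3.55% lower. Higher starts inside and opposite to the pathway genes were thus not more frequent than in genes at large.

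**Figure D2:**
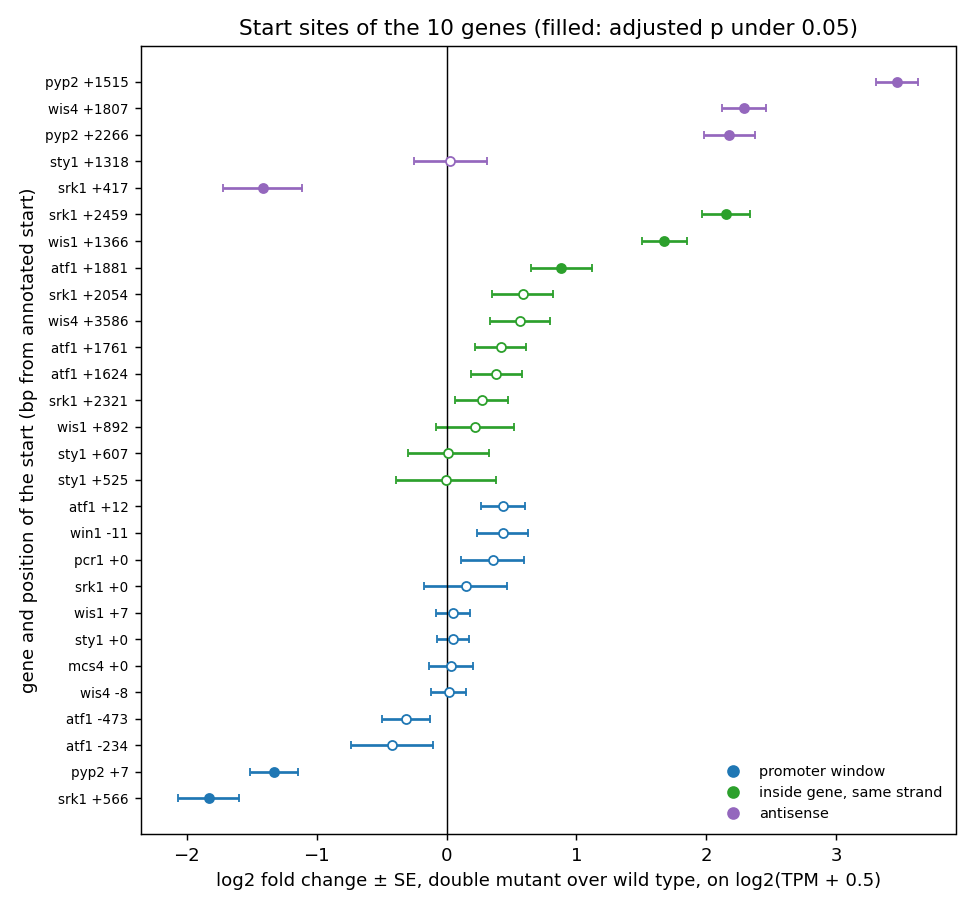
Log2 fold change with its SE, double mutant over wild type on log2(TPM + 0.5), of the 28 start sites tested in the 10 genes, grouped by place and labelled with the distance in bp from the annotated start. Filled points passed the test: 2 lower promoter starts (srk1 +566, pyp2 +7), 3 higher starts inside genes, and 3 higher and 1 lower antisense start.

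The leader of srk1 held 1 of the 2 lower promoter clusters. It is 963 bp long in the annotation and has a main start at its annotated first base and another at +566 bp. The main start had 36.1, 68.5 and 73.6 TPM in the double mutant, and 52.6, 71.3 and 35.6 TPM in the wild type. These values overlapped (log2 fold change 0.15 ± 0.32, adjusted p = 0.737). The start at +566 bp had 3.44, 5.95 and 5.19 TPM in the double mutant, and 22.1, 14.1 and 19.2 TPM in the wild type. Every mutant library lay below every wild-type library, and this start fell in the double mutant (log2 fold change -1.83 ± 0.23, adjusted p = 0.000232), which held without wild-type replicate 2 (-2.01). A further weak start at +717 bp, chosen after its values were seen and under the level for testing, averaged 0.388 ± 0.269 TPM in the double mutant and 1.01 ± 0.169 TPM in the wild type (SD, n = 3 each).

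As a share of the srk1 window, the start at +566 bp gave 8.55%, 7.87% and 6.50% of the tags in the double mutant, and 28.9%, 16.3% and 34.2% in the wild type. The main start gave 90.9 ± 1.26% of the tags in the double mutant and 71.4 ± 9.63% in the wild type (SD, n = 3 each). The mutant libraries agreed closely with one another, whereas wild-type replicate 2 lay nearest to them. The share of the main start was higher in the double mutant, by 1.86 on a log2 odds scale (adjusted p = 0.00371 by limma with Benjamini-Hochberg adjustment), and without wild-type replicate 2 the difference was 2.26. Across the 3964 genes tested for it, this share was higher in 7.97% and lower in 18.8%. The tag-weighted mean start of srk1 lay at 50.1 ± 5.06 bp in the double mutant and at 161.5 ± 54.1 bp in the wild type, a shift of -111.3 bp that did not pass the test over all genes (adjusted p = 0.0928). It passed without wild-type replicate 2, at -141.5 bp (adjusted p = 0.023). A shifted mean position was called in 12.3% of genes, and in 0 of the pathway genes with all libraries in the fit.

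The start at +566 bp also shortens the leader. In the genome sequence 963 bases with 12 ATG triplets, in any frame, lie between the main start and the start codon, and 397 bases with 4 of them lie between +566 bp and the start codon. The opposite strand of the leader changed with it. An antisense start at +417 bp, 149 bp from the one at +566 bp and pointing away from it, had 0.430, 1.47 and 0.806 TPM in the double mutant, and 3.99, 2.13 and 3.34 TPM in the wild type. The groups did not overlap and this start fell too (log2 fold change -1.42 ± 0.30, adjusted p = 0.00494). It was the lower one of the 5 antisense starts tested. Both starts of this divergent pair were thus lower in the double mutant, while the main promoter upstream of them was not called. The start at +417 bp lacked the letters usual at a start site, as described below. The core at +509 bp lies between them, in the leader stretch printed above.

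**Figure D3:**
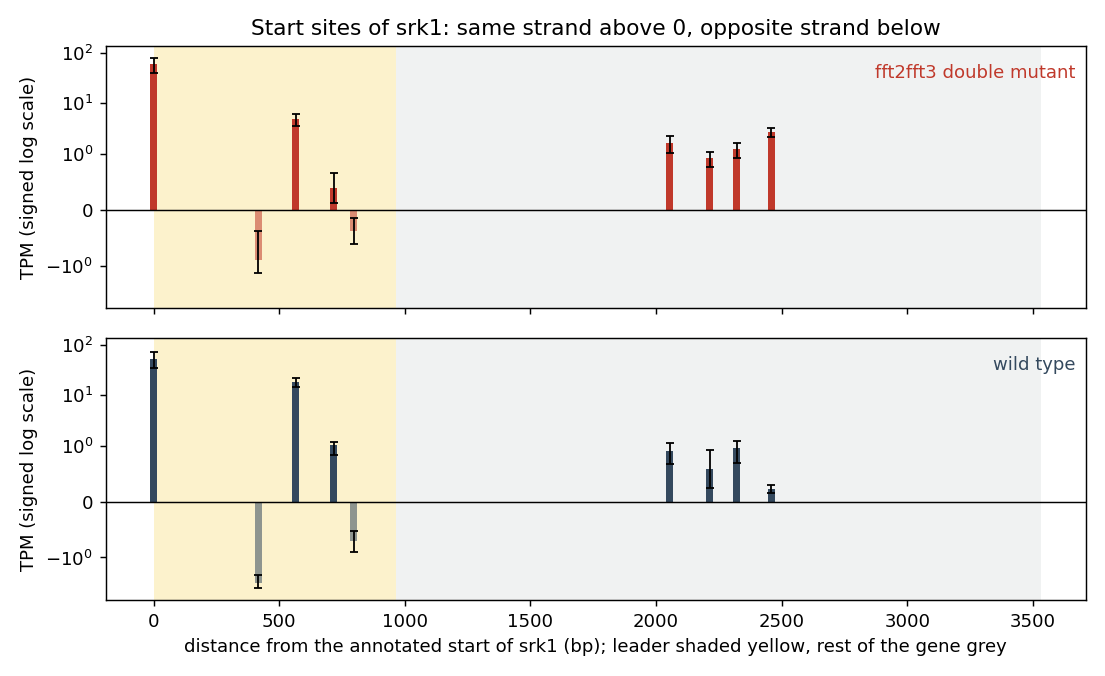
Start sites of srk1 with a mean of at least 0.5 TPM by distance from the annotated start, same strand above 0 and opposite strand below, as mean TPM with SD of 3 libraries on a signed log scale, double mutant above wild type. The starts at +566 bp (4.86 TPM in the double mutant, 18.5 TPM in the wild type) and at +417 bp on the other strand are shorter in the double mutant, and the start at +2459 bp is taller.

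A start inside the coding part of srk1 went the other way. At +2459 bp, within codon 425 of 581, it had 2.37, 2.41 and 3.37 TPM in the double mutant, and 0.299, 0.158 and 0.202 TPM in the wild type. All mutant libraries were far above the wild-type ones, and this start rose 12.4-fold in mean TPM (log2 fold change 2.15 ± 0.18, adjusted p = 1.7e-05). The other tested starts inside srk1, at +2054 and +2321 bp, did not pass the test (adjusted p = 0.0735 and 0.320). All same-strand starts inside srk1 together summed to 11.5 ± 0.292 TPM in the double mutant and 5.61 ± 0.629 TPM in the wild type (SD, n = 3 each). The single gene srk1 thus held starts of both directions of change within 1 transcription unit.

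In pyp2 the promoter was lower and starts within the gene were higher. Its promoter cluster at +7 bp had 0.452 ± 0.107 TPM in the double mutant and 1.91 ± 0.391 TPM in the wild type (SD, n = 3 each; log2 fold change -1.33 ± 0.18, adjusted p = 0.000368). On the opposite strand, a start at +1515 bp had 4.99, 5.56 and 6.24 TPM in the double mutant, and 0.0498, 0 and 0.101 TPM in the wild type. This antisense start was all but absent in wild-type libraries, with 3 tags over them against 369 tags in the mutant libraries, and it rose (log2 fold change 3.47 ± 0.16, adjusted p = 1.35e-06). Another antisense start at +2266 bp had 2.62, 2.07 and 1.51 TPM in the double mutant, and 0, 0.0789 and 0.101 TPM in the wild type. It rose as well, with no overlap between the groups (log2 fold change 2.18 ± 0.20, adjusted p = 2.57e-05). All antisense starts within pyp2 summed to 10.3 ± 0.785 TPM in the double mutant and 0.396 ± 0.375 TPM in the wild type (SD, n = 3 each), so in the double mutant the opposite strand gave more capped ends than the promoter.

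Next to the start at +1515 bp lay a start on the gene's own strand at +1543 bp, within codon 459 of 712, which was under the level for testing and was chosen after its values were seen. It had 1.59, 1.21 and 1.21 TPM in the double mutant, and 0, 0 and 0 TPM in the wild type. With 89 tags in the double mutant, it was at least 23.4-fold higher there than the floor of 3 tags over the 3 wild-type libraries, which covers counting error only. The 2 starts lie 28 bp apart and point away from each other. They are shown in the stretch I:5204136-5204235 on the plus strand, inside the coding part of pyp2. The first capital is the position where the antisense RNA starts, written as the base of the plus strand, and the second is the first base of the sense RNA.
pyp2 inside: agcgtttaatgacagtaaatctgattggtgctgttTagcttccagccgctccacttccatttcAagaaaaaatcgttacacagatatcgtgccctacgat
Whether these starts bear on the lower pyp2 promoter was not tested.

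**Figure D4:**
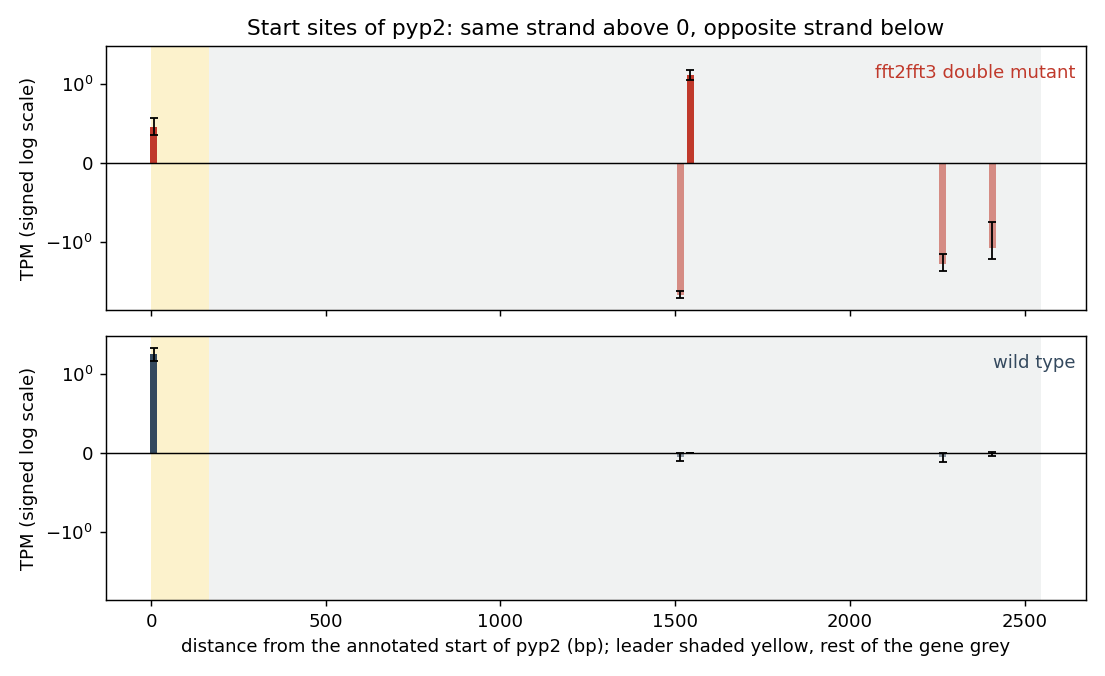
Start sites of pyp2 with a mean of at least 0.5 TPM by distance from the annotated start, same strand above 0 and opposite strand below, as mean TPM with SD of 3 libraries on a signed log scale, double mutant above wild type. The bar at +7 bp is shorter in the double mutant, and the bars at +1515, +1543, +2266 and +2408 bp stand in the double mutant with almost none in the wild type.

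The stretch upstream of pyp2 was read on the same strand. The start of the non-coding RNA gene SPNCRNA.1059, at -1969 bp from the pyp2 start, had 2.19, 4.53 and 3.32 TPM in the double mutant, and 9.47, 8.04 and 7.59 TPM in the wild type. It was lower in every mutant library and fell together with the pyp2 promoter (log2 fold change -1.24 ± 0.24, adjusted p = 0.00243). A start between them, at -632 bp, averaged 1.29 ± 0.185 TPM in the double mutant and 1.72 ± 0.286 TPM in the wild type (SD, n = 3 each) and did not pass the test (adjusted p = 0.177).

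Among the upstream kinases, wis4 and wis1 each held 1 start within the gene that rose. In wis4, the gene of the MAP kinase kinase kinase, an antisense start at +1807 bp had 2.15, 2.59 and 2.87 TPM in the double mutant, and 0.149, 0.158 and 0.0506 TPM in the wild type. The groups were far apart and this start rose (log2 fold change 2.29 ± 0.17, adjusted p = 7.56e-06). A same-strand start 1946 bp from the annotated start, within codon 562 of 1402, was under the level for testing and was chosen after its values were seen, with 1.65 ± 0.123 TPM in the double mutant and 0.304 ± 0.130 TPM in the wild type (SD, n = 3 each). The tested same-strand start of wis4 at +3586 bp overlapped between the groups (adjusted p = 0.0777). In wis1, the start at +1366 bp, within codon 183 of 606, had 2.02, 2.89 and 2.52 TPM in the double mutant, and 0.448, 0.473 and 0.354 TPM in the wild type. It rose with no overlap (log2 fold change 1.68 ± 0.17, adjusted p = 5.57e-05). The other tested wis1 start inside the gene, at +892 bp, did not pass (adjusted p = 0.587).

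Of the 3 tested starts in the coding part of atf1, 1 rose. The one at +1881 bp, within codon 146 of 567, had 1.03, 1.68 and 1.86 TPM in the double mutant, and 0.349, 0.631 and 0.810 TPM in the wild type. The groups did not overlap and it rose by limma (log2 fold change 0.88 ± 0.23, adjusted p = 0.0135), but not by edgeR (adjusted p = 0.0538), by DESeq2 (0.0798) or by limma without wild-type replicate 1 (0.0522). The starts at +1624 and +1761 bp had log2 fold changes of 0.38 and 0.42 (adjusted p = 0.148 and 0.116). All same-strand starts inside atf1 summed to 11.0, 11.1 and 12.9 TPM in the double mutant, and 6.33, 7.33 and 7.69 TPM in the wild type, with no overlap. The atf1 leader of 1444 bp holds an intron, and its main start, at +12 bp, had a log2 fold change of 0.43 ± 0.17 (adjusted p = 0.0647), while the upstream starts at -473 and -234 bp had -0.31 and -0.42 (adjusted p = 0.202 and 0.314).

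At the MAP kinase gene itself no start passed the test. Besides its main start, sty1 had starts inside the gene at +525 bp (adjusted p = 0.997) and +607 bp (adjusted p = 0.975), and an antisense start at +1318 bp in the window of SPNCRNA.622 (adjusted p = 0.943). Summed over the gene, its same-strand inside starts gave 6.22 ± 2.95 TPM in the double mutant and 6.23 ± 2.18 TPM in the wild type, and its antisense starts gave 2.04 ± 0.540 TPM in the double mutant and 1.66 ± 0.758 TPM in the wild type (SD, n = 3 each). The single tested starts of mcs4 at +0 bp, win1 at -11 bp and pcr1 at +0 bp carried nearly all of their windows.

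Summed over all clusters in the body of each gene, antisense tags of every mutant library lay above those of every wild-type library in 3 of the 10 genes, wis4, win1 and pyp2, and below them in 1, srk1. Among the coding genes with antisense clusters, 64.3% lay above and 2.04% below. For same-strand starts inside the gene, 4 of the 10 lay above, wis4, srk1, atf1 and pyp2, and 0 below, against 56.0% above and 3.14% below among all coding genes with such clusters. The win1 antisense sum was small, at 1.27 ± 0.254 TPM in the double mutant and 0.0932 ± 0.0125 TPM in the wild type (SD, n = 3 each). In mcs4, wis1, sty1, pcr1 and pyp1 both sums overlapped between the groups.

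The wis4 promoter also gave a change in the share of its main start, which was 98.7%, 98.9% and 98.8% in the double mutant, and 99.6%, 99.8% and 99.6% in the wild type. The groups did not overlap and the difference of -0.56 in log2 odds passed the test (adjusted p = 0.0428), but it was lost when any 1 library was left out (adjusted p between 0.0612 and 0.142). With srk1 this made 2 of the 8 pathway genes in which each library reached 5 TPM, against 26.8% of all genes tested for it.

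The letters at the start sites were read as well. RNA polymerase II usually starts at a purine that follows a pyrimidine, a step found at 23.1% of all genome positions. All 12 tested promoter starts of the pathway genes, and 4 of the 5 antisense ones, had this step. The antisense start without it was that of srk1 at +417 bp. Of the 11 inside the genes 2 had it, and 0 of the 8 that were not called. Of the 6 starts called higher 5 had the step, and the start without it lay inside a gene. Over all genes, this step was found at 73.7% of the inside starts that were higher in the double mutant and at 22.2% of those that were not higher. That last share is near the 23.1% of all genome positions, and whether each inside cluster marks a start of transcription was not tested.

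Genes that work with the pathway were taken from 3 lists of 21 genes in all, of which 19 were tested. Of these, 2 were higher and 0 lower, beside 24.3% higher and 9.09% lower of all genes tested. The median log2 fold change of the 19 was 0.09, beside 0.13 for all genes. The 6 genes of the phosphorelay and of Mcs4 partners (mak1, mak2, mak3, mpr1, prr1 and tdh1) had 0 calls, as had the 4 PP2C phosphatase genes ptc1 to ptc4. Of the 11 kinases, transcription factors and RNA-binding factors tied to Sty1, 9 were tested and 2 rose, cip1 and csx1. Csx1 binds and stabilises atf1 mRNA in oxidative stress, and Cip1 is an RNA-binding protein that interacts with Csx1. The cip1 promoter had 186.0, 200.3 and 216.8 TPM in the double mutant, and 121.9, 113.0 and 117.6 TPM in the wild type. It was higher in every mutant library (log2 fold change 0.77 ± 0.11, adjusted p = 0.00111). The csx1 promoter was low, with 1.12, 1.51 and 2.57 TPM in the double mutant, and 0.996, 0.315 and 0.354 TPM in the wild type, and its call (log2 fold change 1.09 ± 0.31, adjusted p = 0.0313) was lost by edgeR (0.0569) and without mutant replicate 2 (0.0556), mutant replicate 3 (0.0905), wild-type replicate 2 (0.0897) or wild-type replicate 3 (0.0965). The histidine kinase gene mak2 did not pass, but did without mutant replicate 1 (log2 fold change 0.99, adjusted p = 0.0307). With TMM or median-of-ratios scaling, edgeR or DESeq2, 2 genes of these lists were lower, ptc2 (-0.50 with TMM, adjusted p = 0.027) and rnc1 (-0.46 with TMM, adjusted p = 0.0215). Lower genes made up 15.3% of all genes with TMM, 14.9% with median-of-ratios or edgeR and 16.9% with DESeq2.

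The outputs of the pathway were read from a list of 12 genes taken as dependent on Atf1 in stress, which also holds pyp2 and srk1. Whether each of them, such as cbp1, depends on Atf1 was not tested. Of these, 7 were higher and 1, pyp2, was lower, beside 24.3% higher and 9.09% lower of all genes, and the median log2 fold change was 0.76, beside 0.13 for all genes. The list was chosen with earlier results of these data known, so its count is no independent evidence of a direction. The fructose-1,6-bisphosphatase gene fbp1 had 10.02, 13.7 and 12.4 TPM in the double mutant, and 0.249, 0.315 and 0.152 TPM in the wild type (log2 fold change 4.08 ± 0.18, adjusted p = 5.47e-06). The cation ATPase gene cta3 had 2.15, 11.4 and 11.5 TPM in the double mutant, and 0.199, 0.473 and 0.152 TPM in the wild type (3.24 ± 0.55, adjusted p = 0.00323). Both were well separated, and the lowest mutant library of cta3 was replicate 1, as for pcr1 and srk1.

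The neutral trehalase gene ntp1 averaged 43.7 ± 9.20 TPM in the double mutant and 22.5 ± 2.07 TPM in the wild type (SD, n = 3 each), and tms1 averaged 1.91 ± 0.108 TPM in the double mutant and 0.661 ± 0.173 TPM in the wild type. These genes, with fbp1 and cta3, rose under each scaling tried. The catalase gene ctt1 (log2 fold change 0.82, adjusted p = 0.0375), the glycerol-3-phosphate dehydrogenase gene gpd1 (0.70, 0.0438) and the trehalose-phosphate synthase gene tps1 (0.52, 0.0495) passed as deposited but with neither scaling nor edgeR nor DESeq2, where the list gave 4 higher and 1 lower, beside 18.5%, 18.6%, 18.2% and 19.2% of all genes higher with TMM, median-of-ratios, edgeR and DESeq2. Leaving out 1 library gave between 4 and 6 higher genes, the lowest counts being those without mutant replicate 3 and without wild-type replicate 1. The genes gpx1, hsp9, cbp1 and srk1 did not pass, with log2 fold changes of 0.14, 1.11, -0.32 and -0.20. Values for hsp9 ran from 23.2 to 102.4 TPM in the double mutant and from 16.2 to 58.0 TPM in the wild type, and this gene passed without mutant replicate 1 (log2 fold change 1.77, adjusted p = 0.0377). A list of genes taken as signs of cells leaving growth was read beside these, and whether each marks that state was not tested. Of its 6 genes 3, ste11, zym1 and fbp1, were higher and 0 lower, fbp1 standing in both lists. Shares of all genes were 24.3% higher and 9.09% lower. DESeq2 gave 3 higher and 1 lower, where 19.2% of all genes were higher and 16.9% lower. The lower one was the mating pheromone gene mfm1 (log2 fold change -3.76, adjusted p = 0.0412 by DESeq2), which had 1.89, 3.53 and 3.27 TPM in the double mutant, and 0.847, 93.8 and 6.22 TPM in wild-type replicates 1 to 3. The values of mfm1 thus hang on wild-type replicate 2, as do those of isp5, with log2 fold changes of -1.52 for mfm1 and -0.31 for isp5 with all libraries. Without that library 5 of 6 were higher, with mei2 and isp5 added, while the list of Atf1-dependent genes then gave 6 higher and 1 lower. Shares of all genes called with a library left out are not given, so such counts cannot be set against genes at large. Whether growth state differed between the strains, and what part it had in these results, was not tested.

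**Figure D5:**
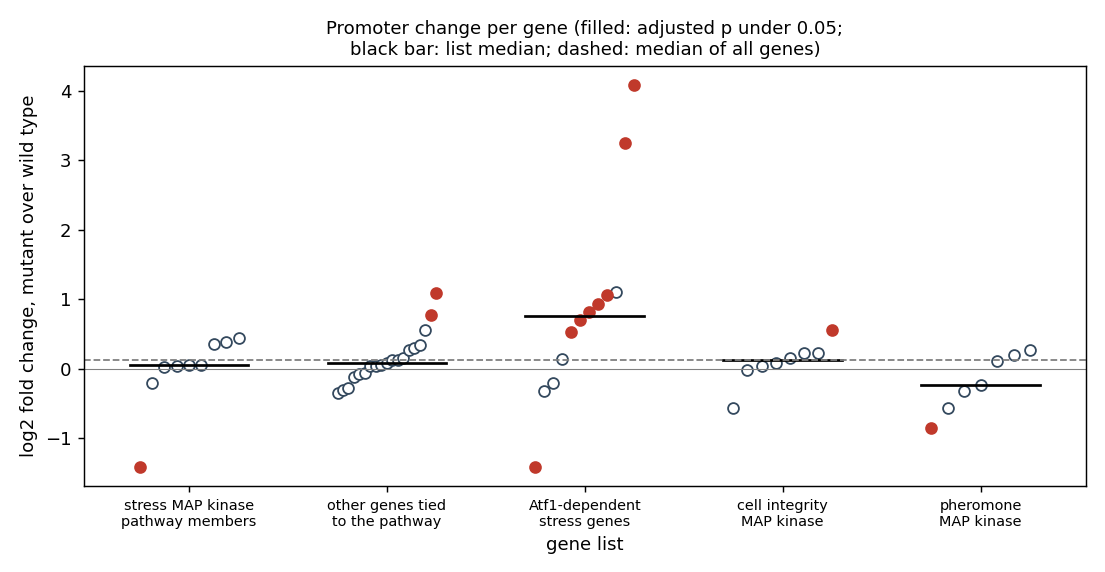
Log2 fold change, double mutant over wild type on log2(TPM + 0.5), of each tested promoter in the pathway genes, the 3 lists of other genes tied to the pathway, the Atf1-dependent stress genes and the genes of the cell integrity and pheromone MAP kinase pathways. Filled points passed the test, black bars are list medians (0.05, 0.09, 0.76, 0.12 and -0.23 from left to right) and the dashed line is the median of all genes, 0.13.

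The 2 other MAP kinase pathways of fission yeast were set beside this one. Shares of all genes called at this setting were 24.3% higher and 9.09% lower. Of the 8 genes of the cell integrity pathway 1 was higher and 0 lower, with a median log2 fold change of 0.12, and the call was rho2, which encodes a GTPase upstream of it, with 35.9 ± 0.699 TPM in the double mutant and 24.3 ± 0.895 TPM in the wild type (SD, n = 3 each; adjusted p = 0.00759). Of the 7 genes of the pheromone pathway 0 were higher and 1 lower, with a median of -0.23, and the call was ste6, an exchange factor for Ras1, with 2.94 ± 0.306 TPM in the double mutant and 5.88 ± 2.03 TPM in the wild type (adjusted p = 0.0252, and 0.0557 and 0.0834 without mutant replicates 2 and 3). With TMM or median-of-ratios scaling 2 were lower, the MAP kinase kinase gene byr1 being added (log2 fold change -0.46 with TMM, adjusted p = 0.0438). At these settings 15.3% of all genes were lower with TMM and 14.9% with median-of-ratios. The pheromone MAP kinase gene spk1 was high in wild-type replicate 2 alone, with 8.39, 7.33 and 6.95 TPM in the double mutant, and 7.27, 31.0 and 6.32 TPM in wild-type replicates 1 to 3, and without that library the median of this list was 0.14. In each of the 3 pathways the MAP kinase gene itself did not pass the test, with log2 fold changes of 0.05 for sty1, 0.03 for pmk1 and -0.56 for spk1.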

How the data were processed

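Per the labels' protocols, CAGE libraries were made from total RNA of whole cells. CASAVA 1.6, Bowtie 0.12.7, bedtools 2.15.0 and build ASM294v2 are named in the submitters' processing notes, without roles. Values were deposited in RPM, scaled by the authors to each library total and written as TPM, for 108138 tag clusters shared by all libraries. A pooled score per cluster, a signal the authors took over all libraries, was not tested. Between 99.7% and 99.8% of values above 0 were whole multiples of 1 tag (tolerance 0.02 tags), and edgeR 4.0.16 on these recovered tags called 1023 genes higher and 834 lower. Counting error was 9.28% to 12.6% of a value of 5 TPM. Floors are 3 tags over the 3 libraries of a group, 0.0452 TPM in the double mutant and 0.0571 TPM in the wild type, and cover counting error only.

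Genes are those of RefSeq assembly ASM294v3. Deposited summits lay 1 bp downstream of the first base: after that shift 98.5% of 2172 plus-strand and 98.2% of 2172 minus-strand promoter clusters had a pyrimidine-purine step. Positions in bp count from the annotated first base as 0, after the shift. Genes and clusters averaging 1 TPM or more were tested with limma 3.58.1 (R 4.3.3; two-sided, empirical Bayes with trend) on log2(TPM + 0.5), with Benjamini-Hochberg adjustment over all of them at 0.05. A gene or cluster high in 1 strain alone could pass this filter through that strain. Folds on this scale understate changes of low genes. Shares and mean positions were tested in genes where each library reached 5 TPM. DESeq2 1.42.0, edgeR, scalings, pseudocounts, filters, windows, leaving out each library and a replicate block were alternatives. The code was tested on simulated data. Named are all 10 genes, their clusters of at least 1 TPM, list genes past the threshold, and the 3 genes most like atf1 and pyp2. Members and lists were chosen with earlier results of these data known.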

Additional observations from a re-analysis of the deposited data

How the results depend on the processing

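Counts of low promoters and inside starts depend on the filter. At a mean of at least 5 TPM the pathway genes gave 0 lower genes, 0 higher clusters and 1 lower cluster. With no filter they gave 33 higher and 10 lower clusters, where the main settings gave 1 lower gene, 6 higher and 3 lower clusters. Shares over all clusters at these other filters are not given, so these counts are not read as a result about the pathway. The calls on pyp2, on the srk1 starts at +417, +566 and +2459 bp and on the wis4 and wis1 starts kept their direction and passed the test under every alternative that tested them. The number of higher genes was 0, and 0 to 1 when a library was left out (1 without mutant replicate 1, pcr1, and 1 without wild-type replicate 2, atf1).

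Changed main-start shares numbered 2, against 1 with the window from 200 bp upstream, 0 without the extension to the start codon, which leaves out the srk1 start at +566 bp by construction, and 1 when any library was left out. Shifted positions numbered 0, and 0 to 1 when a library was left out. Small log2 fold changes turned round: wis4 (0.03) was -0.12 with TMM, median-of-ratios, edgeR and DESeq2 and -0.0314 to 0.11 with a library left out. For mcs4 (0.04) these were -0.11 with TMM, -0.11 with median-of-ratios, -0.13 with edgeR, -0.12 with DESeq2 and -0.0678 to 0.21. For wis1 (0.05) they were -0.10 with each and -0.0248 to 0.12, and for sty1 (0.05) -0.11 with TMM, -0.10 with median-of-ratios, -0.11 with edgeR, -0.10 with DESeq2 and -0.0222 to 0.12. The srk1 sum (-0.20) was 0.15 without the window extension and -0.38 to 0.11 with a library left out. Mean position shifts turned round for srk1 without the extension (0.65 bp), and with the window from 200 bp upstream for wis4 (0.64 bp) and atf1 (-4.17 bp), none of which passed the test. The cause was not tested for wis4, mcs4, wis1 and sty1 beyond the shift of the median of all genes.

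Libraries with the same replicate number did not deviate together (r between -0.34 and -0.21). Deviations were taken from the mean of each group, so positive r for some pairs brings negative r for others. Whether a shared number marks shared handling cannot be told from these values. Deviations did correlate across numbers, at r = 0.41 for mutant replicate 1 with wild-type replicate 3, 0.43 for mutant 2 with wild-type 1 and 0.39 for mutant 3 with wild-type 2. No label pairs these libraries, and no fit here accounts for it. The replicate block joins libraries of the same number, so it does not follow these correlations. With the replicate block the counts stayed at 0 higher and 1 lower gene and 6 higher and 3 lower clusters, the changed shares became 1 (wis4 lost, adjusted p = 0.104), and the Atf1-dependent genes gave 5 higher (gpd1 and tps1 lost, adjusted p = 0.094 and 0.112). The calls on csx1 (0.0757) and rho2 (0.0533) were lost too. Shares of all genes called with the block are not given.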
